A study of Mus musculus with 3 samples.

Results

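The genes described here encode guidance and coupling signals of osteoclasts: semaphorins of classes 3 to 7, their plexin and neuropilin receptors, ephrins, Eph receptors, and 7 secreted or enzymatic coupling factors (Sphk1, Lif, Bmp6, Wnt10b, Cthrc1, Pdgfb and Slit3). They were chosen by gene symbol among the protein-coding genes of the table, which gave 60 of 22046 protein-coding genes and of 54532 genes in all. These 60 genes are called the members. Over the 3 libraries 17 of them reached a mean of 1 FPKM (reads divided by gene length and depth) and are called measured, 13 were above the read floor but under 1 FPKM, and are called low, and 30 had at most 3 reads in every library and are called silent. Of all 22046 protein-coding genes, 9497 reached the same mean. RNA was measured in RAW264.7, a wild-type mouse macrophage line that turns into osteoclasts under the cytokine RANKL. All 3 libraries came from cells that had received RANKL for 3 days. The first had no thyroid stimulating hormone (TSH, time label 0 h), and the others had 10 mU/mL of TSH, for 2 h in one and 24 h in the other. The column names R0, T1 and T2 identify RANKL alone and the TSH libraries, but do not say which of T1 and T2 is 2 h, so no time is read from them.

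Semaphorins are secreted or membrane-bound ligands that act through plexins, and most of the secreted class 3 members need a neuropilin as co-receptor. Ephrins are membrane ligands of the Eph receptor tyrosine kinases, and the contact of cells signals into both partners. In bone, osteoclasts are known to send such signals to cells that form bone: Sema4d restrains osteoblasts through Plxnb1, ephrin-B2 meets Ephb4 on osteoblasts, and LIF, sphingosine 1-phosphate, PDGF-BB and SLIT3 act on osteoblast precursors or vessels. Osteoblast-lineage Sema3a acts in the other direction and restrains osteoclast formation through Nrp1 and A-type plexins.

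There was 1 library per condition, so no difference has a replicate check and no p-value is given. Reads per gene, recovered from the FPKM values, summed to between 16156926 and 17390744 per library. A ratio of FPKM between libraries carries an exact conditional (Clopper-Pearson) 95% interval from these reads, and a gene is called lower or higher beyond counting error where that interval leaves out 1. The interval compares libraries, not conditions, and PCR copies of a molecule count as separate reads. The cells carried osteoclast transcripts: 8 of 9 osteoclast markers reached a mean of 1 FPKM, with Ctsk at 1337, 983 and 980 FPKM in RANKL alone, T1 and T2. Of the markers of other cell types, 0 of 10 for osteoblasts and fibroblasts, 0 of 4 each for endothelium, neutrophils and neurons, and 1 of 5 for lymphocytes (Lck, mean 1.20 FPKM) reached 1 FPKM. Some of these, such as Col1a2, Bglap, Cd3e, Ms4a1, S100a9 and Rbfox3, had 0 reads. Others had a few: Runx2 had 22, 32 and 15 reads in RANKL alone, T1 and T2, Sp7 had 5, 9 and 9, and Kdr had 3, 6 and 4. Macrophage transcripts were also present, with 5 of 6 markers at a mean of at least 1 FPKM, such as Cd68 at a mean of 563.

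The members differed far more in level than in change, and their families were unevenly filled. Only 1 of 14 Eph receptor genes reached a mean of 1 FPKM, against 4 of 9 plexins, 6 of 20 semaphorins, 2 of 8 ephrins, 1 of 2 neuropilins and 3 of 7 of the other factors. Within each family 1 or 2 genes carried most of the summed level: Nrp2 held 99.9% of neuropilin FPKM with RANKL alone, Plxnd1 47.4% and Plxnb2 45.7% of plexin FPKM, Sema4d 51.7% of semaphorin FPKM, and Pdgfb 92.1% of the other factors. In RANKL alone the family sums were 223 FPKM for plexins, 176 for neuropilins, 149 for the other factors, 69.3 for semaphorins, 3.61 for ephrins and 1.17 for Eph receptors.

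**Figure D1:**
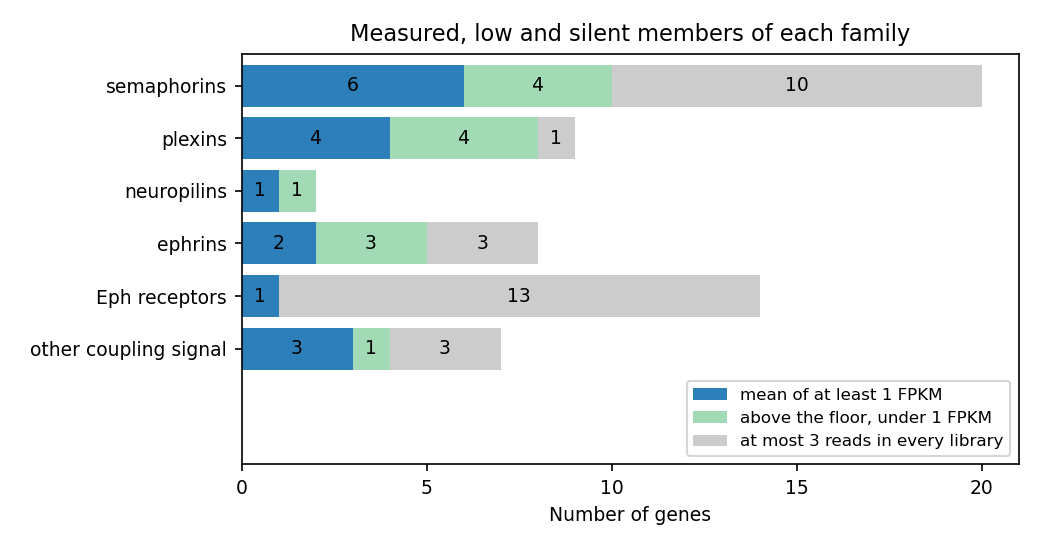
Number of genes (horizontal axis) in each family that had a mean of at least 1 FPKM, that lay above the read floor but under 1 FPKM, or that had at most 3 reads in each of the 3 libraries. The Eph receptors hold 13 silent genes of 14, while 1 of 9 plexins is silent.

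The silent genes included several textbook signals of the bone surface. Sema3a, Sema3d, Sema5b and Sema6a had 0 reads in each library, and Sema3b, Sema3c, Sema3f, Sema3g, Sema4f and Sema6c had between 0 and 3. Among the plexins, Plxnb1, the receptor of Sema4d on osteoblasts, had 1, 1 and 3 reads in RANKL alone, T1 and T2. Ephb4, the partner of ephrin-B2, had 1, 2 and 1 reads. Epha3, Epha4, Epha5, Epha6, Epha7, Epha8, Ephb1 and Ephb6 had 0 reads throughout, and Epha1, Epha10, Ephb2 and Ephb3 had between 0 and 3. Efna5 had 0 reads, and Efna3 and Efna4 had at most 1. Slit3 had 0 reads, Bmp6, a bone morphogenetic protein gene, had 1 read in T1 alone, and Cthrc1, a secreted collagen-repeat protein reported from osteoclasts, had 3, 1 and 2. The 30 silent genes held 42 reads over the 3 libraries. Absence of reads was not particular to the members. Among protein-coding genes with a listed promoter, 7599 were measured, 1927 low and 6971 silent by the same limits. The members with such an entry were 15, 11 and 26. Members with 0 reads shared rank 14435 by mean FPKM among 22046 protein-coding genes, and all genes from that rank down had 0 reads. The floor of 3 reads, the most that a count of 0 allows, lies between 0.0111 and 0.117 FPKM for these genes, depending on their length. A level under it can leave 0 reads at this depth, so 0 reads does not show that RNA was absent. Fewer expressing cells and less RNA per cell cannot be told apart in bulk libraries.

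To show what lies before genes at both ends of this range, 3 promoter sequences from RefSeq (GRCm38.p6) are printed. Of the 60 genes, 52 had an entry in the promoter table and 8 had none. Each line runs 5′ to 3′ on the gene's strand from 250 to 51 bases before the annotated start. Capitals mark CG dinucleotides and, in Lif, also the AP-1 motif TGACTCA. Nrp2 (chr1:62703067-62703266, plus strand) was the most abundant member and Lif (chr11:4257318-4257517, plus strand) showed the lowest ratio in T1 among the measured members. Epha4 (chr1:77515139-77515338, minus strand) had 0 reads. The starts of these 3 genes lie within 1000 bases of the outer start of the gene as counted.

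Nrp2: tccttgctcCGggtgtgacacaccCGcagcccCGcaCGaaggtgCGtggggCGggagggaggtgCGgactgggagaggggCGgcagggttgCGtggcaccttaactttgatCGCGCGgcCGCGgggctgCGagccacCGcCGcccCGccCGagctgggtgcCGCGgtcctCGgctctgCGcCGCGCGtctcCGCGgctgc

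Lif: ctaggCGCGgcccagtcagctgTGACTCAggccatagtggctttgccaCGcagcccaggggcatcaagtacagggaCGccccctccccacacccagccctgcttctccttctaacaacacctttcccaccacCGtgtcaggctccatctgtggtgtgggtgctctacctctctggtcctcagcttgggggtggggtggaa

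Epha4: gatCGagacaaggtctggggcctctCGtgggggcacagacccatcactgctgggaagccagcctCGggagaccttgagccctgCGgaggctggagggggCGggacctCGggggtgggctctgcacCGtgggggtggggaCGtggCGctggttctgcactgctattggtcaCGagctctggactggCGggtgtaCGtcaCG

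The 250 bases before the start held 32 CG dinucleotides for Nrp2, 14 for Epha4 and 6 for Lif, so a silent gene could hold more than a measured one. Over the 26 silent members with an entry the median was 16.5 CG, the median over several starts being taken for a gene that has them. Over the 15 measured members it was 16, with a range from 2 to 32, and over the 11 low members 14. Over all protein-coding genes the median was 17 CG for 7599 measured genes, 9 for 1927 low genes and 3 for 6971 silent genes. At least 10 CG were found in 73.1% of the silent members and in 23.3% of all silent protein-coding genes. Some listed starts lie inside the gene as counted. Over the 49 members with a start within 1000 bases of the outer start, a limit chosen after the data were seen, the medians were 16 for 13 measured, 14 for 11 low and 17 for 25 silent members, against 17.5, 10 and 4 for all protein-coding genes. This is a description with no test, and genes of a family share ancestry.

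**Figure D2:**
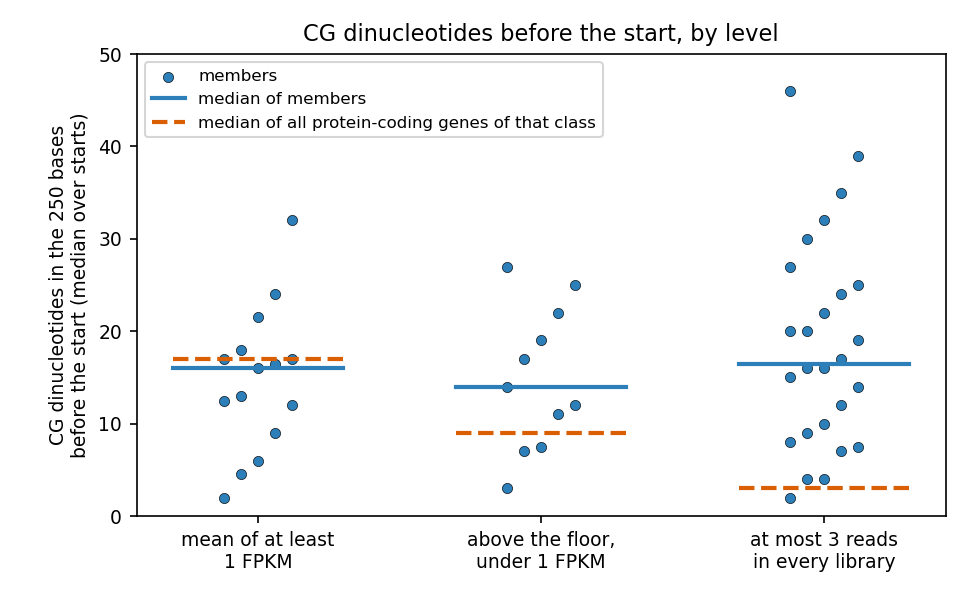
CG dinucleotides in the 250 bases before the annotated start (vertical axis) of the 52 members with an entry, split by level (horizontal axis), 1 point per gene. Solid lines are medians of the members and dashed lines medians of all protein-coding genes of the same class, which drop to 3 for silent genes while the silent members stay at 16.5.

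The AP-1 motif, searched as TGACTCA or TGAGTCA so that both strands are covered, was present before at least 1 start of 3 of 15 measured members, Lif, Sema6b and Sphk1, and of Sema4c among the low ones. It was in 0 of 26 silent members, in 4.46% of all 32851 entries of the same length and in 3.61% of measured, 5.09% of low and 5.95% of silent protein-coding genes. Within 1000 bases of the outer start it was found for 2 of 13 measured, 1 of 11 low and 0 of 25 silent members. The shares of all measured, low and silent protein-coding genes there were 2.91%, 4.02% and 5.92%. Sphk1 has 5 listed starts and Sema6b and Sema4c have 2 each, which gives them more chances of a match, while Lif has 1. In Lif the motif spans bases 228 to 222 before the start. The NFAT core GGAAA or TTTCC lay before at least 1 start of 66.7% of measured and 42.3% of silent members. It lay before 59.0% of measured and 58.8% of silent protein-coding genes. Every measured or silent member with several listed starts had this core, and several starts give more chances of a match. The shares of members were not corrected for the number of starts. A match is a description of letters and was not tested for binding.

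Receptors held the highest level of any member. Nrp2 (chromosome 1, 62703285 to 62818695, GRCm38), the co-receptor of Sema3f and of lymphatic VEGF, had 176 FPKM under RANKL alone against 181 in T1 and 173 in T2, which is rank 231 among all protein-coding genes. T1 was thus the highest library and T2 the lowest. The ratio to RANKL alone was 1.03 (1.01 to 1.04) in T1 and 0.980 (0.966 to 0.995) in T2, opposite directions, both beyond counting error and both small. With libraries rescaled to the same total FPKM these ratios were 1.01 and 0.985 and neither passed, and per library total of reads the T2 ratio was 0.990 and did not pass. Nrp1, the neuropilin used by Sema3a, was at 0.114, 0.0488 and 0.0933 FPKM from 18, 8 and 16 reads, which did not differ beyond counting error.

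Among the plexins 2 genes led. Plxnd1, a receptor of Sema3e and Sema4a, was at 106, 102 and 96.5 FPKM in RANKL alone, T1 and T2. It was lower beyond counting error in T1, at a ratio of 0.963 (0.940 to 0.988), and in T2, at 0.911 (0.888 to 0.934). Plxnb2, a receptor of class 4 semaphorins, was at 102, 99.6 and 97.1 FPKM, and its ratio was 0.976 (0.952 to 1.00002) for T1, whose interval just reached past 1, and 0.951 (0.928 to 0.975) for T2. Plxnd1 and Plxnb2 differed from each other beyond counting error with RANKL alone but not in T1 or T2.

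The A-type plexins, which pair with neuropilins or bind class 6 semaphorins directly, stood at lower levels. Plxna1, which forms a complex with Trem2 and Tyrobp in osteoclasts, was at 9.04, 8.22 and 8.09 FPKM, and its ratio to RANKL alone was 0.909 (0.841 to 0.983) for T1 and 0.895 (0.828 to 0.968) for T2. Plxna2 was at 4.20, 3.67 and 3.40 FPKM, with ratios of 0.874 (0.804 to 0.951) and 0.809 (0.743 to 0.881). RANKL alone was the highest library for both. Plxna4, under the 1 FPKM limit, was at 0.457, 0.326 and 0.303 FPKM from 104, 77 and 75 reads, lower beyond counting error in T1 (0.712, 0.523 to 0.965) and in T2 (0.664, 0.487 to 0.902). Plxna3 was at 0.779, 0.613 and 0.594 FPKM, and both its intervals held 1. Plxnc1, the receptor of Sema7a, was the member just under the limit, at 0.839, 0.864 and 0.943 FPKM, and Plxnb3 had 2, 2 and 6 reads. Neither differed beyond counting error.

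**Figure D3:**
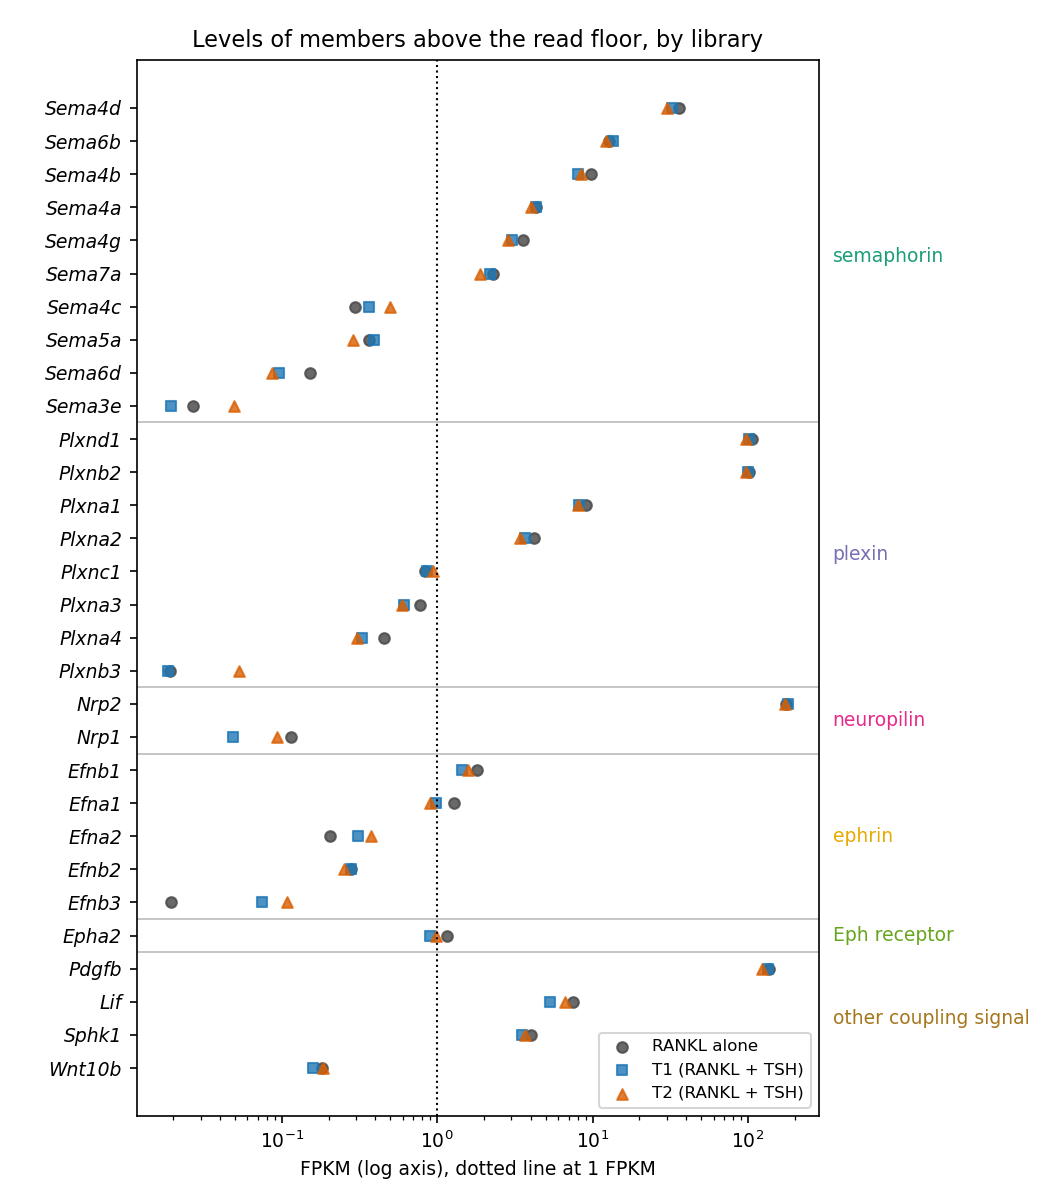
FPKM (horizontal log axis) of the 30 members above the read floor in RANKL alone, T1 and T2, 1 point per library, grouped by family and ordered by mean level. The dotted line is 1 FPKM. Nrp2, Pdgfb, Plxnd1 and Plxnb2 stand near or above 100 FPKM and the 3 libraries nearly coincide for them.

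Among the semaphorins Sema4d had the highest level. Sema4d (chromosome 13, 51685529 to 51793747), the osteoclast semaphorin that restrains bone formation, had 35.8 FPKM under RANKL alone against 32.6 in T1 and 29.9 in T2, from 4436, 4195 and 4022 reads. RANKL alone was the highest library and T2 the lowest. The ratios were 0.910 (0.872 to 0.949) for T1 and 0.834 (0.799 to 0.871) for T2, and T2 was also lower than T1, at 0.917 (0.878 to 0.958). Sema4b was at 9.70, 8.10 and 8.45 FPKM, with ratios of 0.835 (0.757 to 0.921) and 0.871 (0.792 to 0.959), and T1 and T2 did not differ beyond counting error. Sema4g was at 3.55, 3.05 and 2.83 FPKM, with 0.858 (0.721 to 1.02) in T1 and 0.798 (0.669 to 0.952) in T2. Sema4a, an immune semaphorin, was at 4.29, 4.34 and 4.03 FPKM and did not differ beyond counting error in any comparison.

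Sema6b, a transmembrane class 6 member, was second among semaphorins at 12.8, 13.5 and 12.2 FPKM, with intervals that held 1 against RANKL alone and a ratio of 0.907 (0.825 to 0.997) for T2 against T1. That last call did not hold with libraries rescaled to the same total or per library total of reads, at 0.928 and 0.916. Sema7a, a lipid-anchored ligand of Plxnc1 and integrins, was at 2.27, 2.17 and 1.89 FPKM. Its intervals held 1, as did those against RANKL alone of Sema4c (0.297, 0.364 and 0.497 FPKM), Sema5a (0.365, 0.389 and 0.287), Sema6d (0.153, 0.0960 and 0.0865), the ligand of Plxna1, and Sema3e (0.0267, 0.0193 and 0.0492). Sema3e, with 4, 3 and 8 reads, was the sole class 3 semaphorin above the floor, whereas Nrp2 was the most abundant member. Sema5a was lower in T2 than in T1, at 0.737 (0.557 to 0.973).

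Ephrin genes stood at low levels, and their receptors lower still. Efnb1 was at 1.81, 1.43 and 1.57 FPKM from 101, 83 and 95 reads. Efna1 was at 1.29, 0.978 and 0.904 FPKM and Epha2, the sole Eph receptor above the floor and a receptor of A-type ephrins, at 1.15, 0.893 and 0.977, so both passed the limit through the library of RANKL alone. Efnb2, the osteoclast partner of Ephb4 on osteoblasts, was at 0.280, 0.278 and 0.250 FPKM from 31, 32 and 30 reads. Efna2, described in early osteoclasts, had 7, 11 and 14 reads and Efnb3 had 1, 4 and 6. No ephrin or Eph receptor above the floor differed beyond counting error in any of the 3 comparisons. The intervals were wide: for Efna1 in T1 the ratio was 0.759 (0.454 to 1.26) and for Efnb2 0.993 (0.587 to 1.68).

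The other coupling factors held both an abundant gene and the lowest ratio in T1 among the 17 measured members. Pdgfb, the gene of PDGF-B, was at 137, 134 and 124 FPKM, and its ratio was 0.976 (0.948 to 1.005) in T1, whose interval held 1, and 0.906 (0.880 to 0.933) in T2. Lif (chromosome 11, 4257557 to 4272514), a cytokine of the interleukin 6 family, was at 7.48, 5.29 and 6.61 FPKM from 525, 386 and 504 reads. T1 was the lowest library and T2 lay between it and RANKL alone. The ratio was 0.707 (0.618 to 0.808) in T1 and 0.884 (0.780 to 1.0004) in T2, whose interval held 1, and T2 was higher than T1, at 1.25 (1.09 to 1.43). Sphk1, the kinase that makes sphingosine 1-phosphate, was at 4.03, 3.50 and 3.65 FPKM and Wnt10b, a WNT ligand gene, at 0.182, 0.158 and 0.185, and their intervals held 1.

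**Figure D4:**
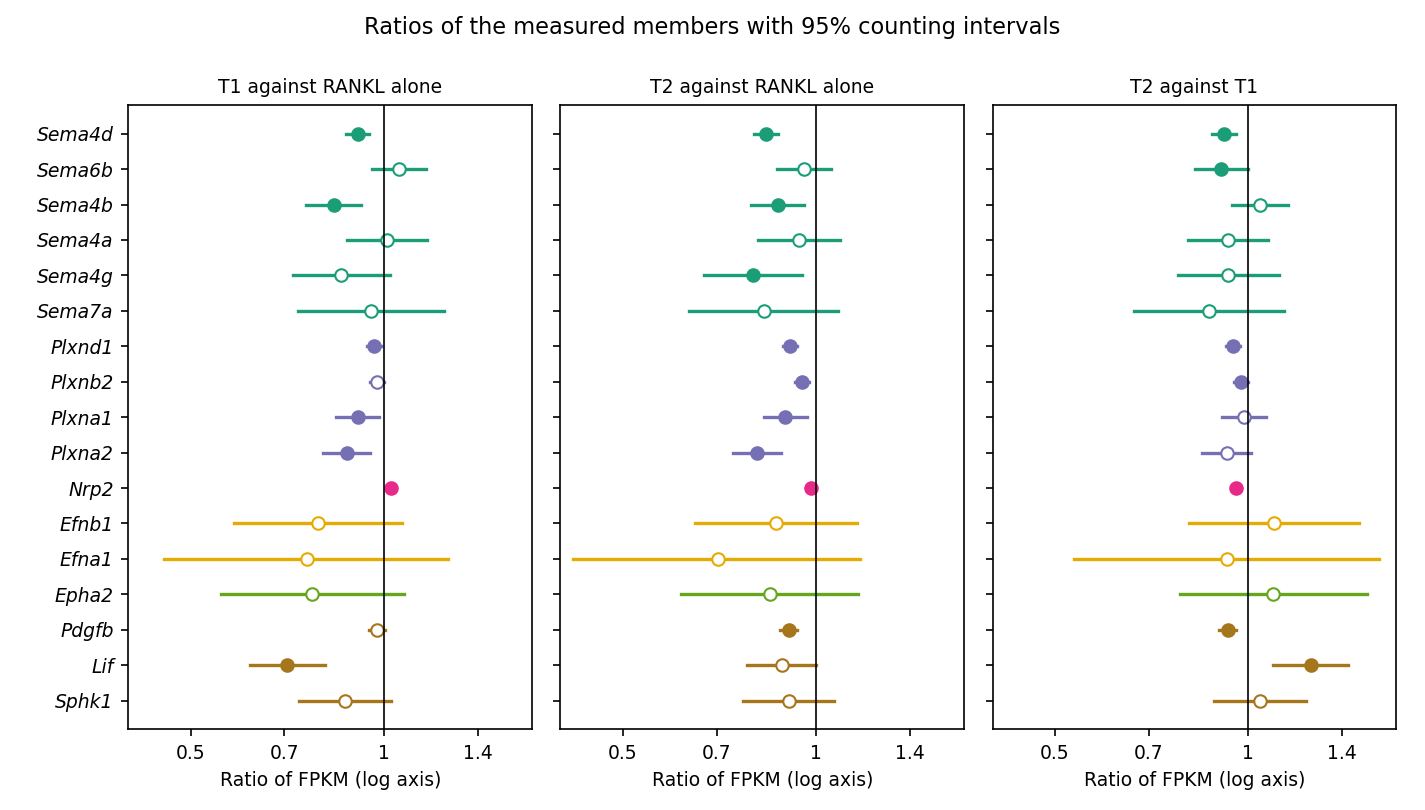
Ratio of FPKM (horizontal log axis) of the 17 measured members in each comparison, with the 95% counting interval as a line. Filled points are those whose interval leaves out 1, and colours mark families. Lif lies farthest below 1 in T1, and Nrp2 passes 1 in T1 and falls below it in T2.

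Counted over the 17 measured members, T1 against RANKL alone had 6 lower beyond counting error (Lif, Sema4d, Sema4b, Plxna1, Plxna2 and Plxnd1) and 1 higher (Nrp2). Over all 9497 protein-coding genes past the same limit, 13.2% were lower and 10.8% higher. In T2 against RANKL alone 9 members were lower (Sema4d, Sema4b, Sema4g, Plxna1, Plxna2, Plxnb2, Plxnd1, Nrp2 and Pdgfb) and 0 higher, against 14.3% and 10.5% of all. In T2 against T1, 6 were lower (Nrp2, Pdgfb, Plxnd1, Plxnb2, Sema4d and Sema6b) and 1 higher (Lif), against 10.3% and 8.33%. With libraries rescaled to the same total 4 were lower, as Plxnb2 (0.997) and Sema6b (0.928) no longer passed. The members called lower made up 35.3%, 52.9% and 35.3% of those measured. A well-covered gene is called at smaller changes. The measured members had a median of 2486 reads over the libraries against 2281 for all, but coverage was uneven among them. Nrp2, Plxnb2, Plxnd1, Pdgfb and Sema4d had the most, with 33687, 12711, 12476, 9180 and 4436 reads under RANKL alone. All of these were lower in T2 against both other libraries. Plxna1, Plxna2, Sema4b and Sema4g, the others lower in T2 against RANKL alone, had at most 1320. The part of coverage in the counts of members was not tested. Among the 9404 genes within the members' range of reads, a background chosen after the data were seen, 13.3% were lower in T1 and 14.3% in T2. That range kept nearly all of the 9497 genes, so these shares could hardly differ and do not match the members for coverage. Both comparisons with RANKL alone share that 1 library, so they are not separate evidence.

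In size these changes were small. The members' median change of log2(FPKM + 1) was -0.13 in T1, -0.14 in T2 and -0.06 for T2 against T1, on a scale where the added 1 shrinks the change of a gene with few reads. The same medians over all protein-coding genes were -0.0031, -0.0033 and -0.0017. Efna1 and Epha2 reached the limit of 1 FPKM with RANKL alone and not in T1 or T2, which favours a negative change. Without them the medians over 15 members were -0.12, -0.14 and -0.08, and the changes ran from -0.43 (Lif) to 0.07 (Sema6b) in T1 and from -0.25 (Sema4d) to -0.03 (Nrp2) in T2. Over the members with a mean of at least 5 FPKM the T1 median was -0.053, and with libraries rescaled to the same total the median for T2 against T1 was -0.038. A 2-fold change on this scale was passed by 0 of the 17 members in each comparison and by 0.179%, 0.0421% and 0.0737% of all 9497 genes in T1, T2 and T2 against T1.

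**Figure D5:**
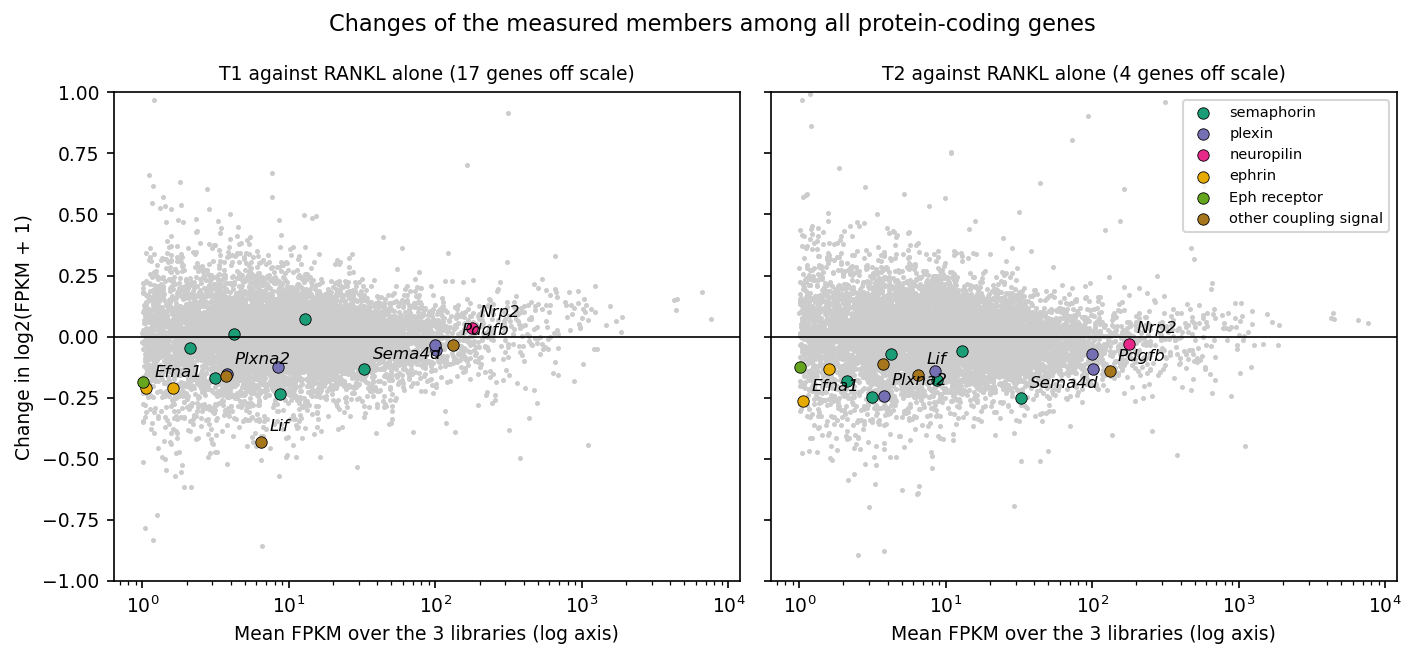
Change in log2(FPKM + 1) (vertical axis) against mean FPKM (horizontal log axis) for T1 and T2, each against RANKL alone. Grey points are the 9497 protein-coding genes past the same limit and coloured points the 17 measured members by family. The members lie inside the spread of the grey points, of which 17 lie off scale in T1 and 4 in T2.

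Markers of the osteoclast state were also mostly lower in the libraries with TSH. Of the 8 measured osteoclast markers, 5 were lower and 1 higher beyond counting error in T1, and 8 were lower in T2, against 13.2% and 14.3% of all protein-coding genes called lower. Several of these markers are among the best-covered genes, such as Ctsk with 32592 reads under RANKL alone, and such genes can be called at small changes. Their summed level, with Calcr included, was 2848, 2362 and 2287 FPKM. Most of it came from Ctsk, at 1337, 983 and 980, and Acp5, at 972, 857 and 822. Nfatc1, the marker called higher in T1, was at 165, 173 and 159 FPKM. The median log2 change of the 8 measured markers was -0.14 in T1 and -0.22 in T2. Of the 5 measured macrophage markers, 2 were lower and 2 higher in T1, while T2 had 2 lower and 3 higher, with sums of 1231, 1217 and 1219 FPKM, and Mertk was at or near 0. The part of these markers in the members' changes was not tested.

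The partners of these signals were read from 7 lists holding 118 genes, chosen with earlier results of these data known. Their counts are to be read against the shares of all protein-coding genes beyond counting error, which were 13.2% lower and 10.8% higher in T1 and 14.3% and 10.5% in T2. Of 34 partners and effectors of semaphorins and plexins, 24 were measured. In T1 2 of them were lower and 1 higher beyond counting error, in T2 5 lower and 1 higher, and their median log2 change was -0.0019 and -0.01. Tyrobp, the adaptor that couples Trem2 and Plxna1, was at 453, 447 and 414 FPKM, with a ratio of 0.915 (0.879 to 0.953) in T2. The small GTPase gene Rap1b was at 161, 156 and 153 FPKM, lower in T2 at 0.948 (0.919 to 0.979). Cd72, the immune receptor of Sema4d, was at 86.5, 88.0 and 88.1 FPKM and did not differ beyond counting error, so RNA of this receptor was abundant while Plxnb1 was silent. Gipc1, whose product binds neuropilins and plexins, was at 62.4, 58.7 and 58.6 FPKM.

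Of 20 ephrin and Eph effectors 16 were measured. In T1 6 were lower and 0 higher, in T2 3 lower and 1 higher, and their median change was -0.08 and -0.04. Src, the kinase needed for bone resorption, was at 75.2, 65.1 and 62.8 FPKM, with ratios of 0.867 (0.833 to 0.901) and 0.835 (0.803 to 0.869). Sdcbp, encoding syntenin, which binds B-type ephrins, was at 59.3, 55.1 and 58.2 FPKM, lower in T1 at 0.929 (0.897 to 0.961). The transcriptional regulator gene Cited2, at 234, 236 and 231 FPKM, and the protease gene Adam10, at 40.8, 41.9 and 41.4, did not differ beyond counting error against RANKL alone.

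Of 9 SLIT and ROBO genes only Srgap3 and Srgap2, GTPase activators, were measured, at 22.0, 21.9 and 21.4 FPKM and 7.44, 7.81 and 7.61, with 0 called and medians of 0.03 and -0.0067. Of the sphingosine 1-phosphate genes 5 of 11 were measured, with 2 lower in T1 and 1 in T2, at medians of -0.09 and -0.00054. Sgpl1, the lyase that destroys the lipid, was at 69.8, 65.0 and 69.3 FPKM, lower in T1 at 0.932 (0.901 to 0.964). Sphk2, the second sphingosine kinase gene, was at 16.7, 16.2 and 17.2 FPKM, above Sphk1. The receptor gene S1pr2 was at 6.92, 6.06 and 6.19 FPKM, lower at 0.876 (0.796 to 0.965) and 0.894 (0.814 to 0.983).

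Of the LIF family and its receptors 4 of 11 were measured, with 1 lower in T1 and 0 called in T2, at medians of -0.03 and 0.0013. Il6st, the shared receptor subunit, was at 12.1, 11.9 and 11.6 FPKM, and its partner Lifr had 0 reads. Stat3, the transcription factor downstream, was at 7.26, 6.23 and 6.98 FPKM, lower in T1 at 0.858 (0.787 to 0.936) and not beyond counting error in T2. Osm and Socs3 were at means of 3.05 and 2.09 FPKM and were not called against RANKL alone. Of 22 BMP, WNT and PDGF partners 9 were measured, of which 1 was lower and 2 were higher in T1 and 1 was lower in T2, at medians of -0.01 and -0.06. Pdgfa, the sister gene of Pdgfb, was at 8.69, 7.36 and 7.92 FPKM, lower in T1 at 0.847 (0.737 to 0.974), and the WNT co-receptor gene Lrp5 was at 9.67, 10.5 and 9.61 FPKM, higher in T1 at 1.08 (1.01 to 1.16). Bmpr1a, at 9.44, 9.88 and 10.2 FPKM, and Lrp6, at 7.56, 7.48 and 7.33, were not called against RANKL alone.

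Of 11 further coupling signals 4 were measured, with 2 lower in T1 and 3 in T2, at medians of -0.20 and -0.20. Cd200, a membrane glycoprotein gene, was at 10.7, 6.84 and 8.32 FPKM, and its ratio was 0.642 (0.562 to 0.732) for T1 and 0.780 (0.690 to 0.882) for T2. Like Lif, it was lowest in T1. Cxcl16, a chemokine gene, was at 3.84, 2.84 and 2.95 FPKM, with ratios of 0.741 (0.592 to 0.925) and 0.768 (0.617 to 0.955). Tnfrsf11a, the gene of RANK, was at 42.3, 41.3 and 39.0 FPKM, lower in T2 at 0.922 (0.882 to 0.963), and Tgfb1 was at 40.6, 38.8 and 39.9 FPKM and was not called. None of the measured genes of the 7 lists passed a 2-fold change.

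In the order of levels, 8 of the 16 pairs of neighbouring measured members differed beyond counting error in all 3 libraries, 5 in some and 3 in none. The 3 pairs that could not be ordered were Sema4b with Plxna1, Plxna2 with Sphk1, and Efna1 with Epha2. Counting bears on a few members. Exon bases shared with another gene were found for 16 members, and among measured ones for Plxna1, Sphk1 and Sema4a, whose overlapping genes had at most 11 reads in a library. Bmp6 and Epha1 overlap Txndc5 and Zyx on the opposite strand, both of them measured, yet had at most 1 and 2 reads. A near-identical stretch in another gene's transcript was found for Sphk1 and Plxna2 among measured members. The stretches were 125 to 147 bases for Sphk1, whose counted length is 4774, and 241 and 311 bases for Plxna2, with a length of 17174. How far they make the reads of these 2 genes less certain was not tested.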

How the data were processed

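Messenger RNA was measured in 3 libraries, 1 per condition. The values are FPKM as the authors deposited them, with gene length in another column, and 0 per-sample columns were left unused. GRCm38 and mm10 are the builds named in the submitters' processing notes. For the aligner, counter, strand handling and annotation, a name is not given in the sources used here.

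FPKM times length was a whole multiple of 1 step per library (within 0.01 for 100% of values above 0), which gave reads per gene. The step's depth equalled the median-of-ratios size factor times the geometric mean of the read sums and differed from the sums by -0.177%, -0.241% and 0.763%. The deposited FPKM thus already carry that scaling.

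Members were taken by symbol among protein-coding genes. Members and lists were chosen with earlier results of these data known. Every member was named, and per list at most 4 genes by mean FPKM, with Lifr named in addition. Changes used log2(FPKM + 1), a mean of at least 1 FPKM and a fold of 2. Ratio intervals were tested on simulated reads that varied by counting error alone, which is what the intervals assume. PCR copies and other variation between libraries were not simulated. Depth limits precision through these intervals, and the floor is 3 reads. Coordinates of all 60 members matched GENCODE M21 (GRCm38). Near-identical stretches were sought with BLAST+ 2.17.0 (95% identity, 100 bases, 50% of the shorter transcript). Promoter motifs and the limit of 10 CG were chosen after the levels were seen. Alternatives were pseudocounts 0.1 and 5, a mean of 5 FPKM or no filter, equal totals, median-of-ratios scaling, reads per library total, 99% intervals and a fold of 1.5. Python 3.11.15, numpy 2.4.6, pandas 2.3.3, scipy 1.17.1 and matplotlib 3.10.9 were used.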

Additional observations from a re-analysis of the deposited data

Results flagged for a closer look

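Nrp2 was higher in T1 and lower in T2, each against RANKL alone and each beyond counting error. The ratio of T2 to T1 was 0.956 (0.942 to 0.970). The difference was not tested against replicates, since each condition had 1 library. With libraries rescaled to the same total, neither difference from RANKL alone passed counting error, at ratios of 1.01 and 0.985.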

How the results depend on the processing

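No replicate could be left out, since each condition had 1 library. Median-of-ratios scaling changed nothing, because the deposited values already hold it. Under libraries rescaled to the same total, 0 members were higher beyond counting error in T1 against 1, Nrp2, in the deposited scale. Total FPKM was higher in T1 (346597) than with RANKL alone (340456), so this rescaling lowers every ratio of T1 to RANKL alone. The median change for T2 against T1 was -0.038 under it. With a pseudocount of 5 the medians were -0.073 in T1, -0.091 in T2 and -0.039 for T2 against T1, and with no filter they were -0.00087, -0.028 and -0.018, as genes at or near 0 reads then entered. With a mean of at least 5 FPKM the median in T1 was -0.053, from the 9 members that reach that limit. Silent members were 14 when 0 reads were required in every library. Other counts of members stayed within 1.5 times, and 0 medians changed sign. Of the 51 ratios of measured members, 6 crossed the edge of their interval under equal totals and 4 under reads per library total, with Nrp2, Pdgfb, Plxnb2 and Sema6b concerned. Among these, Plxnb2 was no longer lower in T2 than in T1, at 0.997 and 0.984, and was lower in T1 than with RANKL alone, at 0.958 and 0.975. Reads limit the ephrin and Eph genes, with at most 101 per library, and the members under 1 FPKM, with at most 138.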
